A study of Mus musculus with 6 samples.

Results

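The core circadian clock genes were 10 genes chosen by name, of the 27962 gene names on the arrays, and they were read by 20 of the 41174 probes. They comprise the activators Arntl (encoding BMAL1), Clock and Npas2, the repressors Per1, Per2, Per3, Cry1 and Nr1d1 (encoding REV-ERBα), and the output factors Dbp and Tef. A probe was a member if its gene name in the scanner files equaled one of these symbols. The RNA came from livers of male 129/Sv mice, which were 6 to 8 weeks old at the start and had all been preconditioned on the control liquid diet. The alcohol mice then received a Lieber-DeCarli liquid diet with 4% ethanol, and the control mice an isocaloric liquid diet with maltose dextran, for 1, 2 or 4 months. The mice were therefore older at each later time. At each time equal amounts of RNA from 6 mice per diet were pooled, and the alcohol pool and the control pool were hybridized together, once with the alcohol RNA in Cy5 and once with it in Cy3. The 6 pools therefore gave 1 pair per month and no measure of the spread between mice. The time of day at which the mice were killed is not given in the sources used here.

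The circadian clock is a transcriptional feedback loop that runs in nearly every cell. BMAL1 pairs with CLOCK or NPAS2 and drives genes that carry E-box elements, among them the Per and Cry genes, whose proteins then shut the activators off. In a second loop REV-ERBα represses Arntl and Npas2, and the PAR bZIP factors DBP and TEF carry the rhythm to metabolic genes of the liver through D-box elements. The transcripts of these genes rise and fall over the day, and liver clocks are also set by feeding time.

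The promoter sequences show which of these elements stand close to the starts of the genes. They are the 250 bases before the start, from RefSeq on GRCm38.p6, printed 5′ to 3′ on the strand of the gene. Capitals mark the E-box CACGTG, its variant CACGTT or the D-boxes TTATGTAA, TTATGCAA and TTACGTAA, searched on both strands, so that a CACGTT on the other strand reads AACGTG. Nr1d1, Tef and Dbp are shown because each had a probe lower in alcohol on all 4 later arrays. Cry1 and Per1 are examples with such elements among the genes whose averages stood above the control level there. Arntl, Npas2 and the brightest Clock probe also had later averages above it, but none of their windows held these elements. The Per1 window not shown held none either.
Nr1d1, chr11:98775378-98775627, minus strand: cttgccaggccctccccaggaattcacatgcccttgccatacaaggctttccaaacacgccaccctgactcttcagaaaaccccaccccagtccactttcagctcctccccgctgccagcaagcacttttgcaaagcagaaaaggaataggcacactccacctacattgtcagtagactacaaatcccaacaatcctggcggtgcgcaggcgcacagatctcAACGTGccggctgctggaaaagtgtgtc
Tef, chr15:81811164-81811413, plus strand: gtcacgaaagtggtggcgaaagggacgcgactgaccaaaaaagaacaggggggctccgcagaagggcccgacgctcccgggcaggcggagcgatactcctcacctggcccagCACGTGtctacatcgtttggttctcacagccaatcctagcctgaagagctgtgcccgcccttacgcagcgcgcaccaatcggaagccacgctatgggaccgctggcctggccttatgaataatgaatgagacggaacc
Dbp, chr7:45704997-45705246, plus strand: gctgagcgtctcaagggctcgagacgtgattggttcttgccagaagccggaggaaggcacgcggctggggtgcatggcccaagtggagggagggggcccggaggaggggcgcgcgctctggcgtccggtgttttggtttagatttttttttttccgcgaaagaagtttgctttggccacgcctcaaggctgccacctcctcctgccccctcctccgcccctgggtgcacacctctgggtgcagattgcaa
Cry1, chr10:85185055-85185304, minus strand: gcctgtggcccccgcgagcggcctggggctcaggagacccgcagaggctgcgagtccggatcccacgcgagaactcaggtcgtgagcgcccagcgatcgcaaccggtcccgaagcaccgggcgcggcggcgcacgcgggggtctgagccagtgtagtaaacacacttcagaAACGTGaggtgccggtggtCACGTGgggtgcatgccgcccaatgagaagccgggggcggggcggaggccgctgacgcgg
Per1, chr11:69098699-69098948, plus strand: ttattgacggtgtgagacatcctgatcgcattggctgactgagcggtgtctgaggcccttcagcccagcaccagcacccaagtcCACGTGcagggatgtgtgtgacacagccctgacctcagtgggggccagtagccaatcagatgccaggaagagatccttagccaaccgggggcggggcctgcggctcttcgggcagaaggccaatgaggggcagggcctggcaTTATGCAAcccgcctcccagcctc
Of all 32851 such windows, 6.02% held the E-box, 3.85% the variant and 1.61% a D-box. Of the 14 windows of 9 members, 4 held the E-box, 2 the variant and 2 a D-box. None of the 14 held a binding half-site of the RORE type, spelled TAGGTCA or TGGGTCA, which 5.38% of all windows held. Other spellings, and bases after the start, were not searched. The E-box stood 166 bases before the start of Per1, 60 before that of Cry1 and 138 before the start of Tef shown, and the Nr1d1 match began 28 bases before its start. The window of Dbp held none of these letters. These are matches of letters and not measured binding.

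All 20 member probes were detected, that is, marked by the scanner software as well above background in some channel, and 16 of them were so in both channels of all 6 arrays, as were 27900 of all probes. Liver identity was checked with 5 hepatocyte markers, Alb, Ttr, Apoa1, Cps1 and Hnf4a, and all 5 were well above background in every channel. Month 1 was hybridized on one slide, and months 2 and 4 shared another. Dye effects were strong: over probes well above background throughout, the alcohol over control ratios of both arrays correlated at r = 0.16, -0.30 and -0.32 (Pearson, across probes) in months 1, 2 and 4. Both arrays gave the same sign for 13, 14 and 11 of the 20 member probes in these months, against 45.8%, 35.1% and 32.2% of all tested probes. The direction of each ratio was taken from the dyes in the labels. Every ratio below is the log2 of alcohol over control averaged over the 2 arrays, ± the SD of those 2 arrays, which covers dye and array error but not mice. Levels are log2 signals minus the 75th percentile of the channel, averaged over the dyes, and can be read within a probe but not between probes.

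Dbp, all 3 Nr1d1 probes and 2 of the 4 Tef probes stood lower in the alcohol pools on all 4 arrays of months 2 and 4, whereas both Cry1 probes and 1 of 4 Clock probes stood higher on all 4. The averages of Tef, the activators, the Per genes and Cry1 stayed within 2-fold of control at every month. At 2 months Dbp was lower by 2.00-fold, and 1 of 3 Nr1d1 probes passed 2-fold at 4 months. These were the only 2 cases in which the averaged ratio of a member probe passed 2-fold. None of the member probes passed the test over the 3 months once p-values were adjusted.

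**Figure D1:**
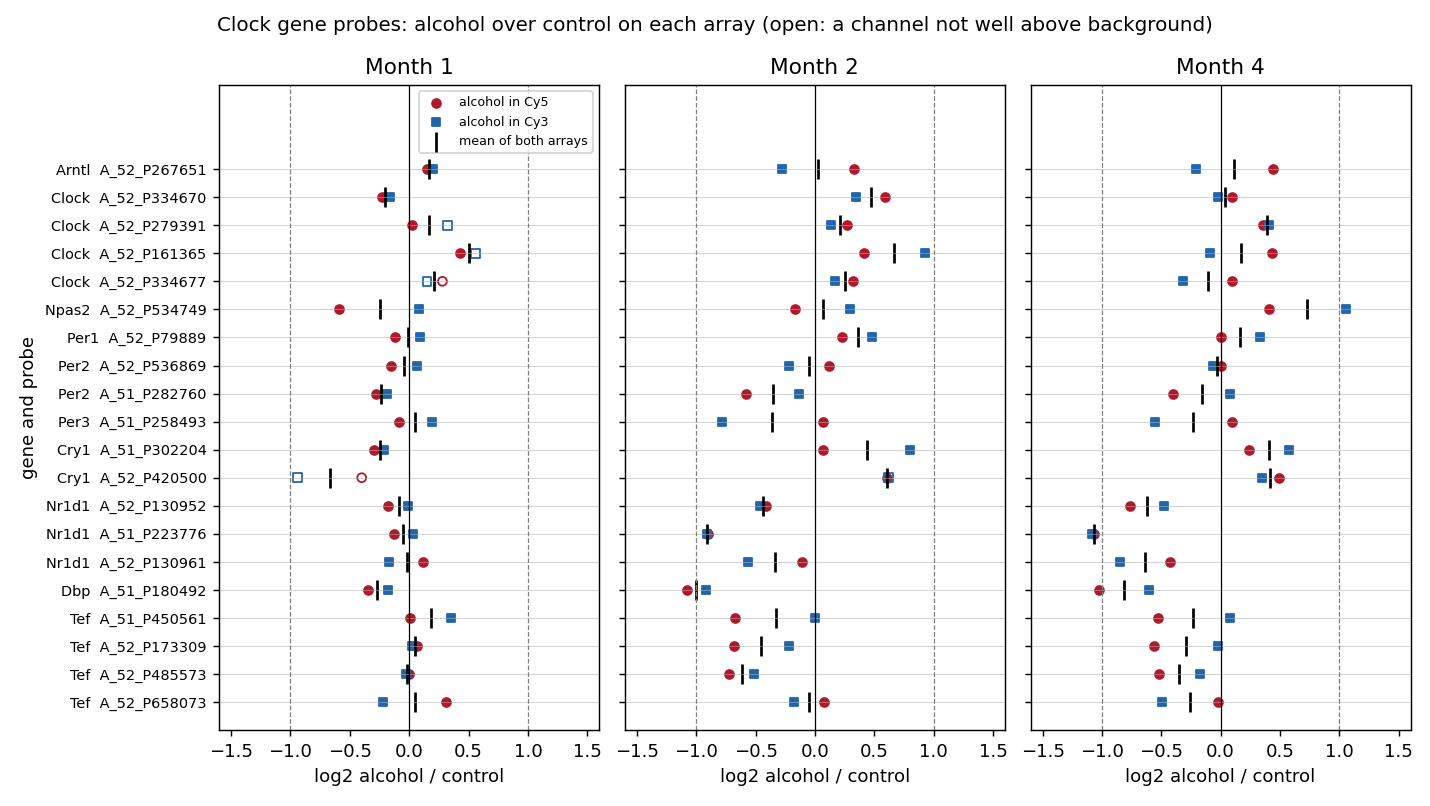
The log2 alcohol over control ratio (x axis) of the 20 clock gene probes (y axis) is plotted for months 1, 2 and 4, with circles for the array with alcohol in Cy5, squares for the array with alcohol in Cy3 and black bars for their mean. Dashed lines mark 2-fold and open symbols a channel not well above background; Dbp and the 3 Nr1d1 probes lie left of 0 on both arrays in months 2 and 4, and the Dbp means there are -1.0 and -0.81.

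Dbp encodes a PAR bZIP factor with a wide daily swing in liver, and its transcript is a direct target of the activators. On the arrays with alcohol in Cy5 its log2 ratio was -0.35, -1.08 and -1.02 at 1, 2 and 4 months, and on the arrays with alcohol in Cy3 it was -0.18, -0.92 and -0.60. All 6 arrays thus lay below 0. The averages were -0.27 ± 0.12, -1.0 ± 0.11 and -0.81 ± 0.30, that is 1.20-fold, 2.00-fold and 1.76-fold lower in alcohol. The value of month 2 stood at the 2-fold limit and was -0.97 with normexp background correction and loess. The control pools held a level of 2.92, 2.78 and 2.92 in the 3 months, and the alcohol pools 2.65, 1.77 and 2.10. On this scale every alcohol pool lay below every control pool. The order of the control pools depended on the scale: month 2 minus month 1 was -0.15 here, 0.38 with channels scaled to their median and -0.39 with Aquantile. Such a separation, with all 3 alcohol pools below all 3 control pools, was seen for 0.749% of the 27900 probes measured throughout, and the opposite one for 0.405%. It was seen for 1 of the 16 member probes and the opposite for 0, but the separation of Dbp was lost when the channels were scaled to equal distributions across arrays. The mean over the 3 months was -0.69 (95% confidence interval -1.09 to -0.30), with an adjusted p of 0.620 in limma.

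Tef encodes the sister factor of DBP and binds the same D-box. Its brightest probe, A_51_P450561, had ratios of 0.18 ± 0.25, -0.33 ± 0.47 and -0.23 ± 0.43, and both later averages were smaller than the difference between their arrays. A_52_P485573 had -0.02 ± 0.02, -0.61 ± 0.15 and -0.35 ± 0.25, with both arrays below 0 in both later months. A_52_P173309 had 0.05 ± 0.04, -0.45 ± 0.32 and -0.29 ± 0.38, and A_52_P658073 had 0.05 ± 0.37, -0.05 ± 0.18 and -0.26 ± 0.33. The 4 Tef probes were thus all below 0 on average at 2 and 4 months, but only A_52_P485573 was below 0 by more than its SD in both. Tef gave its lowest values on the arrays with alcohol in Cy5, from -0.72 to -0.52 for the first 3 probes in the later months. The means over the 3 months lay between -0.32 and -0.09, and the smallest adjusted p was 0.620 in limma.

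Nr1d1 encodes REV-ERBα, a nuclear receptor that silences Arntl and Npas2 and is itself driven by the activators. Its brightest probe, A_52_P130952, had ratios of -0.18, -0.41 and -0.76 when alcohol was in Cy5. They were -0.01, -0.46 and -0.48 when it was in Cy3, and averaged to -0.09 ± 0.12, -0.44 ± 0.04 and -0.62 ± 0.19. The probe A_51_P223776 gave -0.13, -0.90 and -1.07 on the former arrays and 0.03, -0.91 and -1.08 on the latter. Its averages were -0.05 ± 0.11, -0.91 ± 0.01 and -1.07 ± 0.00, which is 1.03-fold, 1.87-fold and 2.10-fold lower in alcohol. The third probe, A_52_P130961, averaged -0.02 ± 0.21, -0.34 ± 0.32 and -0.64 ± 0.30. The 3 probes had the same order over the months, near 0 at 1 month and lowest at 4 months, but they differed in size, and 2-fold was passed by A_51_P223776 alone and not by the mean of the 3. The level of A_51_P223776 was 1.05, -0.56 and 0.24 in the control pools and 1.00, -1.48 and -0.83 in the alcohol pools. Its control pools thus differed by more between months 1 and 2 than the diets did in any month. For the brightest probe the control pools stood at 1.74, 1.92 and 2.53 and the alcohol pools at 1.64, 1.48 and 1.91.

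Over the 3 months the mean ratio of A_51_P223776 was -0.68 (95% confidence interval -1.23 to -0.12), and the slope was -0.51 for each step from 1 to 2 or from 2 to 4 months (-0.86 to -0.17). In limma the adjusted p was 0.620 for the mean and 0.627 for the slope. The slopes of the other Nr1d1 probes were -0.26 and -0.31, with adjusted p-values of 0.654 and 0.627 in limma.

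**Figure D2:**
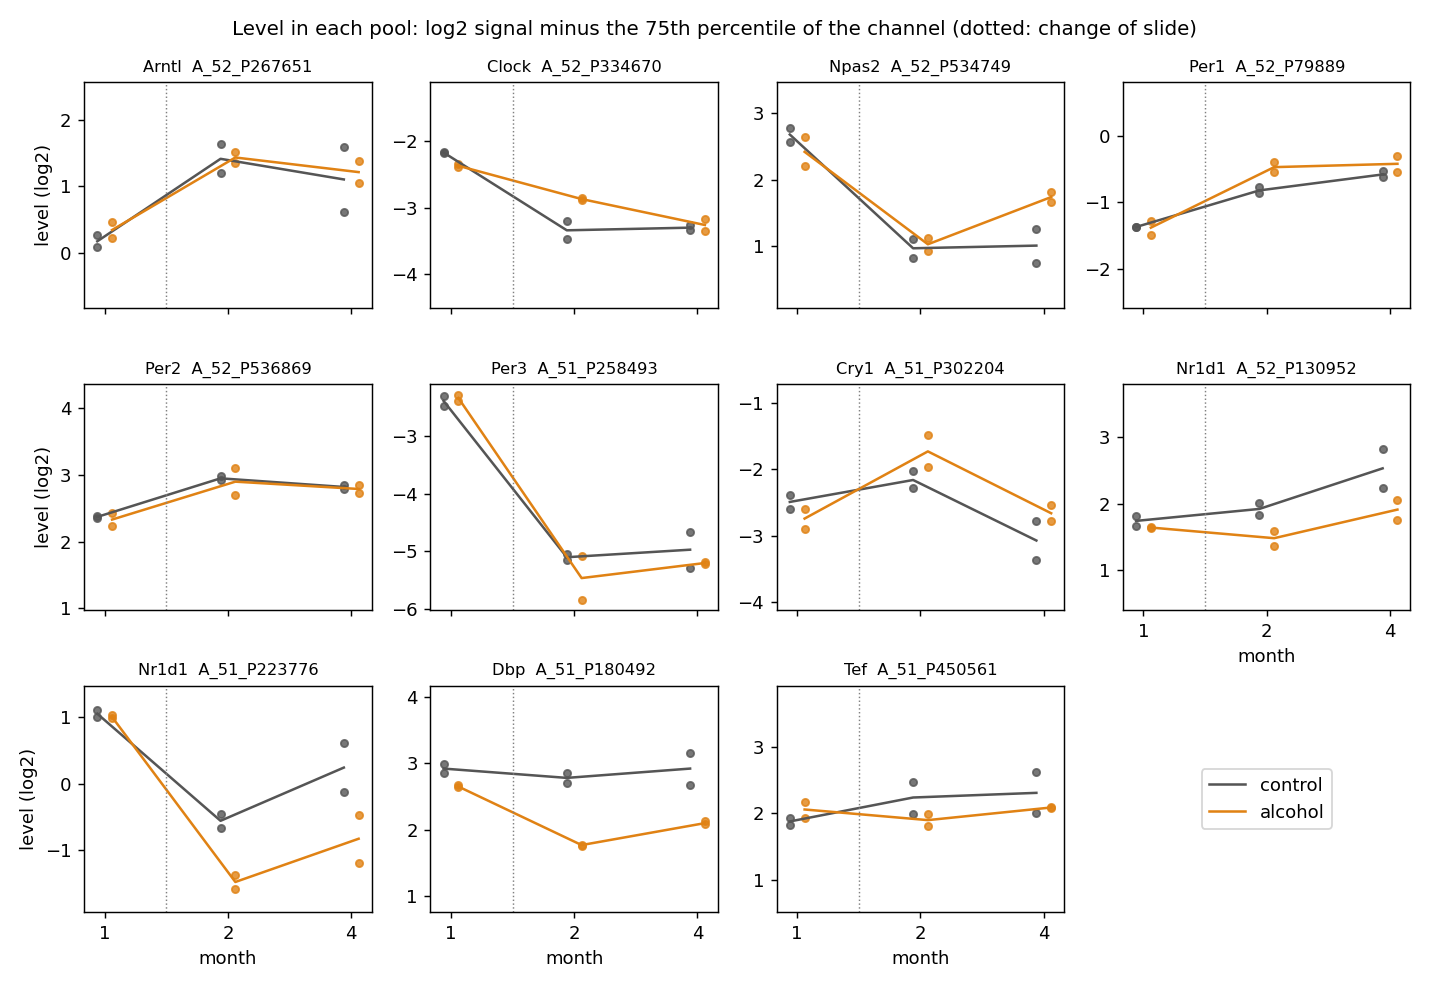
The level of the brightest probe of each of the 10 genes, and of the Nr1d1 probe A_51_P223776, is plotted on the y axis (log2, relative to the 75th percentile of the channel) against the month on the x axis, with points for the single channels and lines through the means of the control pools (gray) and alcohol pools (orange). A dotted line marks the change of slide after month 1; the alcohol line of Dbp runs below its control line in all 3 months, and Per3 changes in both diets across the dotted line, by -2.70 and -3.11 on this scale and by -1.27 and -1.48 with Aquantile.

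Over the 3 months the mean ratio of all 6 activator probes lay above 0, between 0.10 and 0.44, but none passed the adjusted threshold, and 2 of these means turned below 0 with a month left out, that of the Clock probe A_52_P334670 to -0.08 without month 2 and that of Npas2 to -0.09 without month 4. Arntl, whose product BMAL1 is required for the rhythm, had log2 ratios of 0.15, 0.33 and 0.44 when alcohol was in Cy5 but of 0.20, -0.28 and -0.21 when it was in Cy3. The arrays of the later months thus disagreed in sign, and the averages were 0.17 ± 0.03, 0.03 ± 0.43 and 0.11 ± 0.45. The mean over the months was 0.10 (95% confidence interval -0.06 to 0.27; limma adjusted p = 0.698). That interval leaves out a change of 1.5-fold, a log2 of 0.585, in either direction for these pools.

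Npas2 encodes the paralog of CLOCK that can replace it as partner of BMAL1, and its ratio went from -0.25 ± 0.47 at 1 month over 0.07 ± 0.33 to 0.73 ± 0.46 at 4 months, where alcohol was 1.66-fold higher. Both arrays of month 4 were above 0, at 0.41 and 1.06, whereas those of months 1 and 2 disagreed in sign. The level was 2.68, 0.97 and 1.01 in the control pools and 2.42, 1.03 and 1.74 in the alcohol pools. The slope was 0.49 per step (95% confidence interval 0.24 to 0.75), with an adjusted p of 0.617 in limma. Npas2 had the lowest unadjusted p of the members for a slope, 0.00543 in limma, and its slope had the opposite sign to those of the 3 Nr1d1 probes, although no slope passed the adjusted threshold.

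Clock was read by 4 probes that did not agree. The brightest, A_52_P334670, had ratios of -0.20 ± 0.05, 0.47 ± 0.17 and 0.04 ± 0.08, with both arrays below 0 at 1 month and above 0 at 2 months. A_52_P279391 had 0.17 ± 0.21, 0.21 ± 0.10 and 0.39 ± 0.04, and A_52_P161365 had 0.50 ± 0.10, 0.67 ± 0.37 and 0.17 ± 0.37. For both of these the control pool of month 1 was well above background on 1 of its 2 arrays. A_52_P334677 had 0.25 ± 0.11 at 2 months and -0.11 ± 0.30 at 4 months. At 1 month neither array had its control pool well above background, and alcohol, measured on 1 array, was at least 1.02-fold higher on single channels after loess and Aquantile normalization, a limit open to dye bias. The means of the 4 probes over the months lay between 0.11 and 0.44, all above 0, and the lowest adjusted p was 0.620 in limma.

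Of the repressors, the Per genes stayed within 2-fold between the diets. Per1, which responds to hormones and feeding as well as to the clock, had ratios of -0.01 ± 0.15, 0.36 ± 0.17 and 0.16 ± 0.23. Per2 had -0.04 ± 0.16, -0.05 ± 0.24 and -0.03 ± 0.04 on its brightest probe and -0.24 ± 0.06, -0.35 ± 0.32 and -0.16 ± 0.34 on A_51_P282760. The mean of the brightest Per2 probe over the months was -0.04 (95% confidence interval -0.19 to 0.11), and that of A_51_P282760 was -0.25 (-0.43 to -0.07), which left out 0 before adjustment but had an adjusted p of 0.620 in limma. Per3 had 0.05 ± 0.19, -0.36 ± 0.60 and -0.23 ± 0.46, and its later arrays disagreed in sign.

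Cry1, the cryptochrome that holds the activators in check, was lower in alcohol on both arrays of month 1, at -0.30 and -0.21, and higher on all 4 later arrays, at 0.07 and 0.80 in month 2 and at 0.24 and 0.58 in month 4. The averages of this probe, A_51_P302204, were -0.25 ± 0.06, 0.44 ± 0.52 and 0.41 ± 0.24. The dimmer probe A_52_P420500 had 0.61 ± 0.01 and 0.42 ± 0.10 in the later months. At 1 month neither pool was well above background with it, and at 2 months the control pool was on 1 of 2 arrays. The slope of the brighter probe was 0.33 per step (95% confidence interval -0.02 to 0.68; limma adjusted p = 0.696).

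Read against the whole array, the counts of members were as follows. In month 1, 0.0949% of the 37922 tested probes were at least 2-fold lower in alcohol and 0.158% at least 2-fold higher, and 0 member probes were in either set. In month 2 these shares were 0.182% and 0.243%, with 1 member probe lower, that of Dbp, and 0 higher. In month 4 they were 0.338% and 0.464%, with 1 member probe lower, A_51_P223776 of Nr1d1, and 0 higher. At 1.5-fold the counts were larger. In month 2, 3 of 20 member probes were lower, of Dbp, Nr1d1 and Tef, against 1.47% of all tested, and 2 were higher, of Clock and Cry1, against 1.39%. In month 4, 4 were lower, the 3 Nr1d1 probes and Dbp, against 1.61%, and 1 was higher, that of Npas2, against 2.52%. In month 1 the 1.5-fold shares were 0.649% lower and 0.609% higher, with 1 member probe lower, the Cry1 probe not above background, and 0 higher.

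There were 6 of the 20 member probes below 0 on all 4 arrays of months 2 and 4, namely the 3 of Nr1d1, that of Dbp and 2 of Tef, against 7.49% of all tested probes. A further 3 were above 0 on all 4, namely 1 of Clock and 2 of Cry1, against 5.42%. The median over the 10 genes, by brightest probe, was -0.07, -0.01 and 0.00 in months 1, 2 and 4, and that over all tested probes lay within 0.01 of 0 in each month. Probes of a gene share their target, and the months share no mice.

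**Figure D3:**
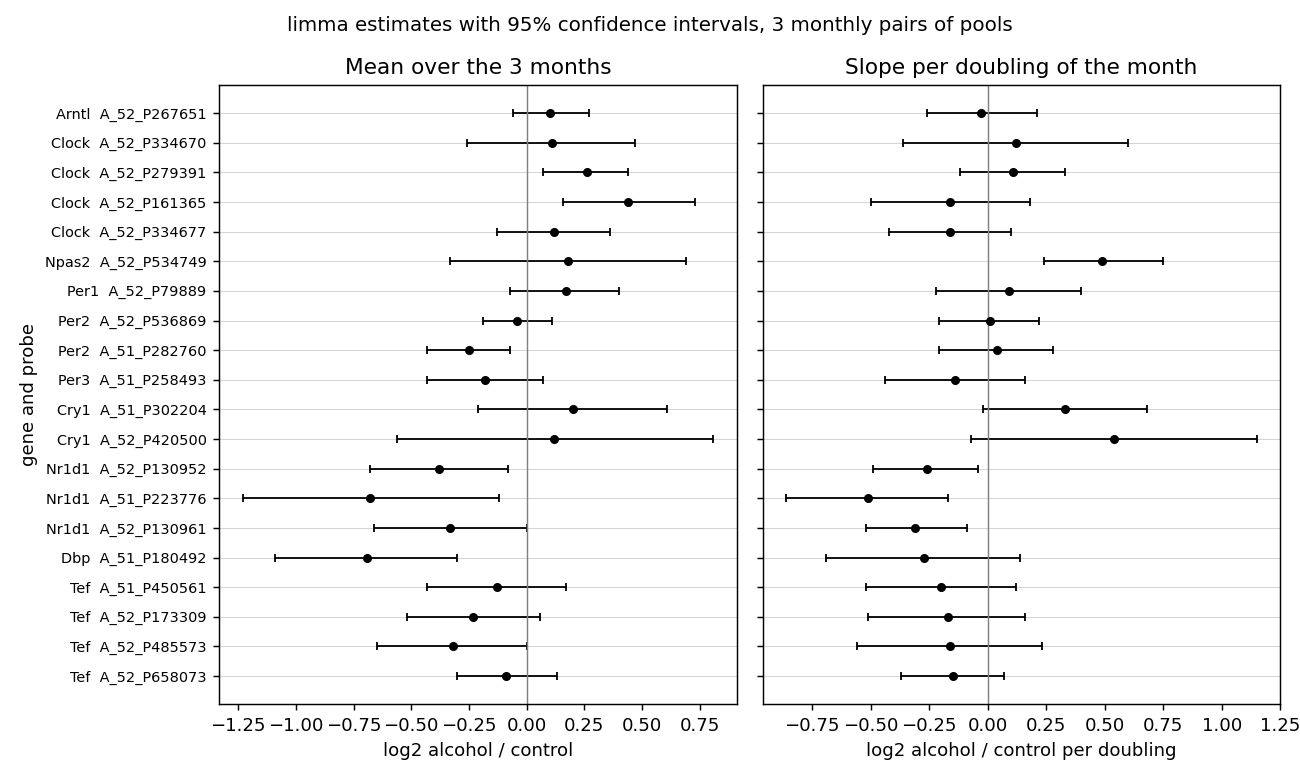
The mean log2 alcohol over control ratio over the 3 months (left, x axis) and its slope per step from 1 to 2 or from 2 to 4 months (right, x axis) are plotted for the 20 probes (y axis), with bars for 95% confidence intervals from limma. The intervals of Dbp and of the Nr1d1 probe A_51_P223776 lie below 0 for the mean, at -1.09 to -0.30 and -1.23 to -0.12, before adjustment over all probes.

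In limma 0% of the 37922 probes had an adjusted p below 0.05 for the mean and 0% for the slope, so 0 members did. At an unadjusted p below 0.05 there were 7.98% of all probes for the mean and 6 of 20 member probes, of Dbp, Nr1d1 (2), Clock (2) and Per2. For the slope there were 7.42% of all probes and 4 of 20 member probes, the 3 of Nr1d1 and that of Npas2. With 3 pairs of pools, the test adjusted over the whole array made no call for any gene. The p-values rest on the spread of the 3 monthly ratios, moderated over all tested probes. For the mean, that spread mixes month, slide and mice.

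Differences between month 1 and the later months were larger than those between the diets for several members. Among them were Per3, Arntl, Per1 and the brightest probes of Clock and Per2. For Npas2 this held in the control pools, at -1.71 and -1.67 against a widest diet ratio of 0.73. Month 1 cannot be told apart from the other slide. Among the probes above background in every control channel, 32.0% differed at least 2-fold between the control pools of months 1 and 2, 32.0% between months 1 and 4, and 2.60% between months 2 and 4. The members counted 5, 3 and 0 of 16. Per3 had a control level of -2.40 in month 1 and of -5.10 and -4.97 in months 2 and 4, and an alcohol level of -2.35, -5.46 and -5.20. Its difference between months 1 and 2 was -2.70 in the control and -3.11 in the alcohol pools, and -1.27 and -1.48 with Aquantile. Arntl had control levels of 0.17, 1.41 and 1.1, and alcohol levels of 0.34, 1.43 and 1.21. Between months 2 and 4, which share a slide, the control pools of every member probe were within 2-fold of each other, the widest differences being -0.91 for Cry1 and 0.81 for the Nr1d1 probe A_51_P223776.

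Beyond the members, 15 other genes of the clock were examined, among them Cry2, the REV-ERB paralog Nr1d2, the E-box repressors Bhlhe40 and Bhlhe41, the D-box repressor Nfil3, the receptor Rora, and the casein kinases. None of them reached 2-fold in any month. Their median ratio was -0.04, 0.00 and 0.03 in months 1, 2 and 4, with a range of -0.44 to 0.20 in month 2 and -0.41 to 0.37 in month 4 apart from Timeless, which had 0.96 ± 0.48 there but was well above background in only 5 of 12 channels. In limma 0 of the 15 had an adjusted p below 0.05 for the mean, and 3 an unadjusted one, against 7.98% of all tested probes.

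Of the 19 genes under clock control in liver with a probe, 1 was at least 2-fold lower and 1 higher in month 1, against 0.0949% and 0.158% of all tested probes. In month 2, 0 were lower and 4 higher, against 0.182% and 0.243%, and in month 4, 1 was lower and 2 higher, against 0.338% and 0.464%. The difference from other genes was not tested, and their medians were -0.10, 0.12 and 0.34. The widest differences belonged to Cyp2a5, a cytochrome P450 known as a target of the PAR bZIP factors, with 0.83 ± 0.14, 1.13 ± 0.63 and 2.22 ± 0.75. It was above 0 on average in all 3 months, in which Dbp was below 0. Lpin1, a phosphatidate phosphatase, had -1.07 ± 0.24, 1.48 ± 0.57 and 0.56 ± 0.97. Noct, a rhythmic enzyme first described as a deadenylase, had 0.35 ± 0.03, 0.31 ± 0.17 and 1.34 ± 0.10. Cdkn1a, the cell cycle inhibitor p21, had -0.13 ± 0.12, 1.30 ± 0.14 and 0.39 ± 0.24. Of the genes under REV-ERB control, Insig2, a brake on sterol synthesis, had 0.04 ± 0.11, 1.25 ± 0.58 and 0.35 ± 0.80. Elovl3, a fatty acid elongase, had -0.37 ± 0.15, 0.58 ± 0.32 and -1.20 ± 0.37. These 6 genes did not share a time course, and in limma 0 of the 19 had an adjusted p below 0.05 for the mean and 6 an unadjusted one, against 7.98% of all tested probes.

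**Figure D4:**
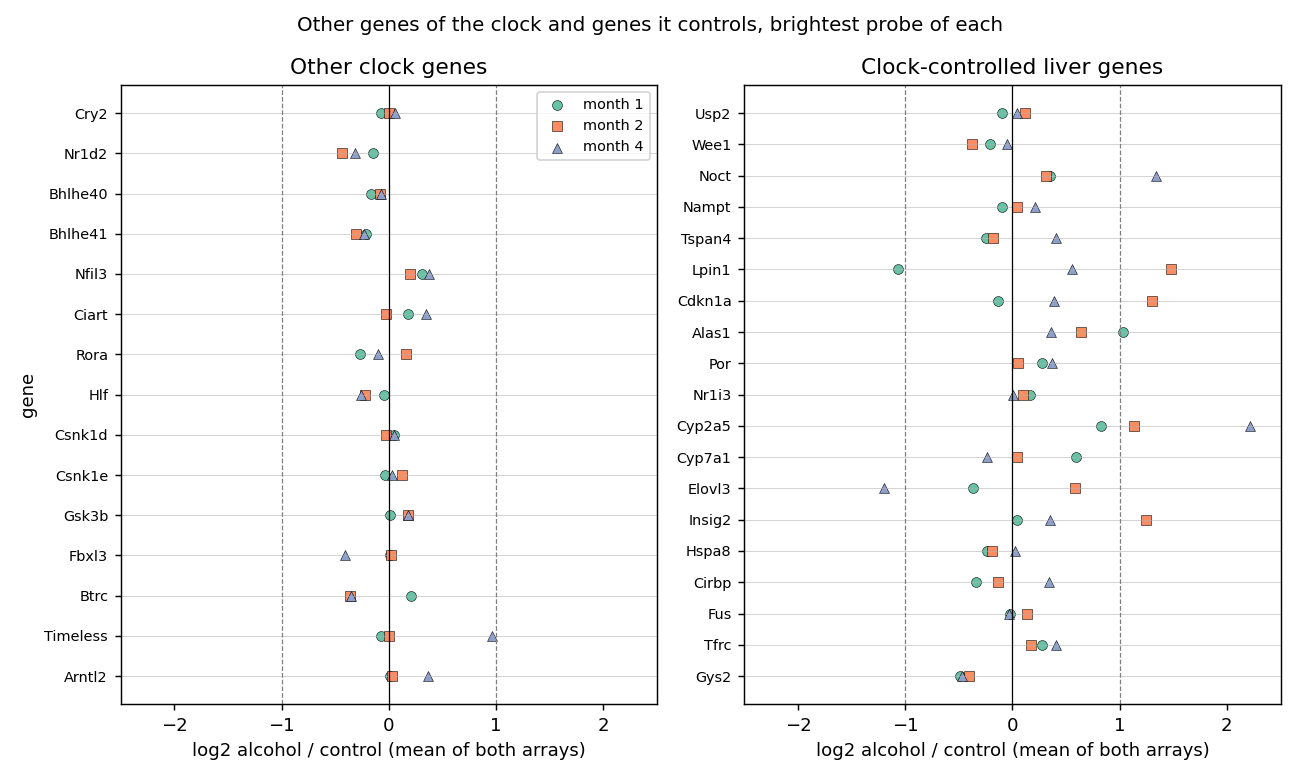
The log2 alcohol over control ratio, averaged over the 2 arrays of a month (x axis), is plotted for 15 other clock genes (left) and 19 clock-controlled liver genes (right), with circles, squares and triangles for months 1, 2 and 4 and dashed lines at 2-fold. The other clock genes lie inside the dashed lines, and Cyp2a5 reaches 2.22 at month 4.

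The probes whose levels over the 6 pools ran most like that of Dbp belonged to Egfr (Pearson r = 0.934), Aqp8 (0.900), LOC665393 (0.899), Gas1 (0.888) and Igf1 (0.870), among 10317 probes measured throughout with an SD over the pools of at least 0.5. Dbp itself had an SD of 0.48, below that limit, and Arntl one of 0.55. Aqp8, a water channel, had levels of 2.92, 2.01 and 2.84 in the control pools and of 2.23, 1.14 and 1.91 in the alcohol pools. Egfr, the receptor of epidermal growth factor, had -0.79, -1.50 and -1.48 against -1.46, -2.64 and -2.15. Gas1 had -2.19, -2.05 and -2.28 against -2.12, -3.03 and -3.22. These probes were picked by their likeness to Dbp, so their shared pattern is a description. For Arntl the leading 5, St3gal1, Ccpg1, 5730403B10Rik, Duoxa1 and Dpys, all had r = 0.998, and 1266 of the 10317 probes exceeded 0.95, against 0 for Dbp. The 6 points share 2 slides and 3 dye-swap pairs, and for Arntl the widest difference lay between month 1 and the later months, which cannot be told apart from the slide.

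Markers of other cells were set beside these values. In month 2, when Dbp was lowest, the medians were -0.07 for 6 Kupffer and myeloid genes, -0.07 for 4 endothelial, 0.12 for 3 cholangiocyte, 0.14 for 3 stellate, 0.05 for 8 pancreatic acinar and -0.15 for 3 blood genes, and -0.10 for the 5 hepatocyte genes. In month 4 all 8 acinar genes were above 0, from 0.10 to 2.17 (Cpb1, a carboxypeptidase, ± 0.55), with a summed level of 4.37 in the alcohol pool against 4.00 in the control pool. In month 1 the blood genes were at 0.05 to 1.97 and their summed level was 6.44 against 4.78. In that month all 6 Kupffer and myeloid genes were also above 0, with a median of 0.19 and the highest value, 1.23 ± 0.74, for the macrophage marker Emr1, and a summed level of 4.49 against 4.39. All 4 endothelial genes were above 0, with a median of 0.36 and the highest value, 0.95 ± 0.25, for Lyve1, and a summed level of 1.73 against 1.36. In month 4 the blood genes differed in sign, with Alas2, the erythroid enzyme of heme synthesis, at -2.0 ± 0.39 (-0.75 ± 0.42 in month 2) and the globins Hba-a1 and Hbb-b1 at 0.61 ± 0.18 and 0.63 ± 0.64, and the summed level was 5.44 against 4.95. The hepatocyte genes had summed levels of 6.98, 6.68 and 5.32 in the control and of 6.76, 6.62 and 5.34 in the alcohol pools. Alb, the gene of serum albumin, had levels of 4.99, 5.27 and 1.16 in the control and of 5.30, 5.29 and 1.75 in the alcohol pools, so that it was lower in both diets in month 4 than in month 2 on the same slide. The other lists had summed levels of 4.39 to 5.09 (Kupffer and myeloid), 1.03 to 1.36 (endothelial), 3.55 to 3.86 (cholangiocyte) and 0.83 to 1.38 (stellate) in the control pools. In the alcohol pools they were 4.49 to 5.10, 1.07 to 1.73, 3.62 to 3.85 and 0.71 to 1.18. Every marker gene of these lists was well above background in at least 11 of 12 channels. Of the immediate early genes, which respond to handling, Egr1, Atf3 and Ier2 were measured throughout. Their ratios were -0.01, 0.37 and -0.56 in month 2 and -0.76, 0.04 and -0.22 in month 4. Fos was well above background in 0 of 12 channels. Jun was well above background in the alcohol pool on both arrays of months 2 and 4 and in none of the other 8 channels. Its alcohol level was at least 1.39-fold and at least 2.01-fold higher in months 2 and 4, on single channels after loess and Aquantile. The part of other cells, of handling and of the time of killing in the values of the clock genes was not tested. In pooled RNA, fewer cells of a type and less RNA per cell cannot be told apart.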

How the data were processed

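The members and lists were chosen with earlier results of these data known. The authors labeled pooled RNA with Cy5 and Cy3, hybridized it to Agilent 4x44K mouse arrays and deposited the output of Feature Extraction 9.1.1.1, which gives signal intensities after background correction and dye normalization and, per spot, a log10 ratio of red (Cy5) over green (Cy3). The deposited value table holds log10 ratios already turned to alcohol over control and served as an alternative. Each log10 ratio was turned to alcohol over control by the dyes in the labels, converted to log2, and averaged over spots and over the dye-swap pair. The authors' methods also average the pair. Control spots were removed; no outlier flags were set (0 spots). Between 73.1% and 90.3% of probes were well above background in a channel. Precision is limited by having 6 arrays.

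The 37922 probes that reached well above background in any channel entered a fit of the 3 monthly ratios with limma 3.58.1 (R 4.3.3), with Benjamini-Hochberg adjustment at 0.05 over all of them. The mean was tested against 0 and the slope on the log2 of the month. Within a month there is no replicate, so 2-fold was used without a test. The fits were also run on simulated independent values without dye or slide effects, so that run does not cover such effects. Every member probe is named, brightest first. Of the other clock genes and the clock-controlled liver genes, those at least 2-fold apart with both pools measured are named, at most 6 per list by size. Other list genes named with values were chosen after their values were seen. The 5 probes most like Dbp and Arntl are named by Pearson r. Lists use the brightest probe, and Hspa1b and Serpina1a had no probe by name. A further list gene is not reported here. Promoters came from RefSeq for 9 of the 10 genes. Alternatives were normexp (offset 50) with loess, the deposited table, an error-weighted average, each array alone, other filters, centring and thresholds, the mean of a gene's probes, each month left out, the slide as a block, a test without moderation, month in place of its log2 and other level scalings. Figures and other steps used Python, numpy and pandas.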

Additional observations from a re-analysis of the deposited data

Results flagged for a closer look

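In 3 member probes the direction changed between months, with both arrays of 1 month on one side of 0 and both arrays of another month on the other side and all channels well above background; the differences between the months were not tested, and month 1 lay on another slide. The Clock probe A_52_P334670 was higher by 0.67 on the log2 scale in month 2 than in month 1, from -0.20 to 0.47. The Cry1 probe A_51_P302204 was higher by 0.69 in month 2 and by 0.66 in month 4 than in month 1. The Tef probe A_52_P173309 differed from month 1 by -0.50 in month 2 and by -0.34 in month 4. In month 1 the ratios of all 3 probes were no larger than the modeled technical error of their arrays, which was 0.27 and 0.28 for Clock, 0.30 and 0.28 for Cry1 and 0.20 and 0.21 for Tef. In the later months the Cry1 ratio of 0.07 and the Tef ratio of -0.02 were also smaller than their errors of 0.17 and 0.18.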

How the results depend on the processing

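No member passed the adjusted threshold for the mean or the slope under any alternative run. For all probes the count for the mean went from 0 to 9 with normexp background correction and loess and to 6 with probes measured throughout, and that for the slope from 0 to 50 with normexp and loess. The mean of the Clock probe A_52_P334670 lay between -0.08 and 0.26 with each month left out, -0.08 without month 2, and that of Npas2 between -0.09 and 0.40, -0.09 without month 4. The mean of the Cry1 probe A_52_P420500 lay between -0.12 and 0.52, below 0 without month 2 or 4 (-0.03), and was -0.08 with the slide as a block, and the slope of Clock turned to -0.02 with the mean of its probes. Without each month in turn the mean of Dbp lay between -0.91 and -0.54 and that of the Nr1d1 probe A_51_P223776 between -0.99 and -0.48.

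Counts of members at 2-fold also moved. In month 2 the lower count went from 1 to 0 with normexp and loess (Dbp at -0.97) and with the alcohol-in-Cy3 array alone, and to 3 at 1.5-fold, where the higher count went from 0 to 2. In month 4 the lower count went from 1 to 2 with the alcohol-in-Cy5 array alone, to 4 at 1.5-fold and to 0 with the mean of a gene's probes, and the higher count from 0 to 1 with the alcohol-in-Cy3 array alone and at 1.5-fold. In month 1 the lower count went from 0 to 1 at 1.5-fold. With channels scaled to their median, 8 and 6 members in place of 5 and 3 were 2-fold apart between the control pools of month 1 and those of months 2 and 4. The count with all alcohol pools below all control pools went from 1 to 2 with that scaling and to 0 with Aquantile. The cause of these moves was not tested. Levels across months thus depend on the scaling, while the ratios within an array do not use it. Alcohol and control were paired on each array, so the tests of the 3 monthly ratios are paired by month, and the slide was the only further block fitted.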
